A study of Mus musculus with 23 samples.

Results

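Transcripts of 7 genes of the RAS, RAF, MEK and ERK kinase cascade were compared in mouse liver. The genes are Hras and Nras, Araf and Braf, Map2k1 and Map2k2, and Mapk3, matched by gene symbol among the 27179 genes of the count table. All 7 had reads in all 15 mice, so none was lost to a filter on low values. RNA was sequenced from liver tissue without visible tumors of 15 female mice, 6 in the group Ctrl, 6 in ABpIF/+ and 3 in ABpIF/F. Every mouse carried Alb-Cre, a Cre recombinase driven by the albumin promoter and thus active in hepatocytes, together with floxed Trp53 alleles (TRP53 flx/flx). Ctrl mice had wild-type Braf and ICMT flx/+. ABpIF/+ mice had the conditional knock-in allele BrafCA/+ and ICMT flx/+, and ABpIF/F mice had BrafCA/+ and ICMT flx/flx. The genotype labels of the individual samples write BRAF +/+ for both knock-in groups, whereas the description of the series gives BrafCA/+. The strain label is malpa cross for 5 of the 6 Ctrl mice. It is BG cross for Ctrl mouse BG3 and for every knock-in mouse, so strain label and Braf genotype can hardly be told apart. The labels carry no age, the study describes its ABpIF/F mice as sampled at different ages, and it describes the floxed Icmt allele as weaker than the normal one even before Cre acts. Liver also holds cells in which the albumin promoter is silent, so each value is a mean over recombined and unrecombined cells.

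RAS proteins are small GTPases that, when loaded with GTP at the membrane, recruit and activate the RAF kinases. RAF phosphorylates the MEK kinases, MEK phosphorylates the ERK kinases, and ERK phosphorylates targets that include transcription factors and its own negative regulators. In liver the cascade carries growth signals during regeneration, and activating Braf alleles drive it without RAS. RAS proteins end in a CAAX sequence, whose cysteine is prenylated and then carboxyl-methylated by ICMT, the enzyme that the floxed Icmt allele removes.

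The coding ends of both RAS members are shown because they hold the CAAX cysteine on which ICMT acts. Each line gives the final 9 codons and the stop codon, 5′ to 3′ on the coding strand, with the codon of that cysteine in capitals. The Hras end lies in exon 5 of transcript Hras-201 on the minus strand, at chr7:141191348-141191377 of GRCm38, and the Nras end lies in exon 5 of Nras-201 on the plus strand, at chr3:103063420-103063449. Both transcripts encode 189 codons before the stop, and the sequences are those of GENCODE M21.
Hras: tgcatgagctgcaaaTGTgtgctgtcctga
Nras: tgtatggggctgcccTGTgtgctgatgtag
Upstream of the CAAX cysteine this stretch holds 2 further cysteine codons in Hras (tgc) and 1 in Nras (tgt), and these upstream cysteines are known sites of palmitoylation.

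Between 24742910 and 32262649 reads per mouse fell on genes, and levels are given as CPM, edgeR's depth-scaled counts with libraries normalized by its TMM method. Calls were made where edgeR's quasi-likelihood test gave an adjusted p below 0.05. The Alb-Cre target Icmt was between 27.8 and 37.4 CPM in the 12 Ctrl and ABpIF/+ mice and between 15.2 and 16.6 CPM in ABpIF/F mice. In ABpIF/F vs ABpIF/+ it fell by 1.04 on the log2 scale (edgeR adjusted p = 7.17e-06, standard error 0.13). Trp53, floxed in all groups, rose from 5.35 ± 1.02 CPM (SD, n = 6) in Ctrl to 13.9 ± 1.89 (SD, n = 6) in ABpIF/+ and 10.7 ± 1.50 (SD, n = 3) in ABpIF/F. Hepatocyte markers summed to at least 90877 CPM in every liver, mostly from Alb. Strain label and circadian genes differed between libraries along with the groups. Only 1 of the 6 Ctrl mice, BG3, has the strain label of the knock-in mice. A clock score, the mean log2 CPM of 9 evening minus 4 morning circadian genes, was between -1.64 and 0.71 in the ABpIF/F mice and -0.28 in Ctrl mouse malpa387, against 4.01 to 5.29 in the other 11 mice. The TMM factor of ABpIF/F mouse BG38 was 1.24, and those of the other mice ran from 0.846 to 1.09.

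Of the 7 members, 4 were called in at least 1 comparison (Hras, Map2k1, Map2k2 and Mapk3), none with a 2-fold difference. In ABpIF/+ vs Ctrl, 1 of 7 members was upregulated (Hras) and 1 downregulated (Map2k1), where 12.7% of all genes tested were called higher and 12.7% lower. Mapk3 alone was called in ABpIF/F vs Ctrl, upregulated, against 9.70% of all genes higher and 7.36% lower. In ABpIF/F vs ABpIF/+ Mapk3 was upregulated and Hras and Map2k2 were downregulated, against 10.7% of all genes higher and 7.46% lower. Among the 12316 genes whose mean reached 1 CPM, all members included, 47.3%, 31.8% and 32.4% were called in either direction in the 3 comparisons. Of the members, 2, 1 and 3 of 7 were called. With only 7 members, these counts are too small to set them apart from that background. At the stricter rule of an adjusted p under 0.01 and a 2-fold difference, 0 members were called in any comparison, while 10.0%, 6.93% and 7.24% of all genes were. Whatever their p, 80.9%, 84.2% and 83.6% of the genes with at least 1 CPM also differed by less than 2-fold. The median log2 fold change of the 7 members was 0.23 in ABpIF/+ vs Ctrl, -0.05 in ABpIF/F vs Ctrl and -0.22 in ABpIF/F vs ABpIF/+. The median of all genes tested was 0 in each comparison, and that of genes with at least 1 CPM was 0.02, -0.00077 and -0.04.

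**Figure D1:**
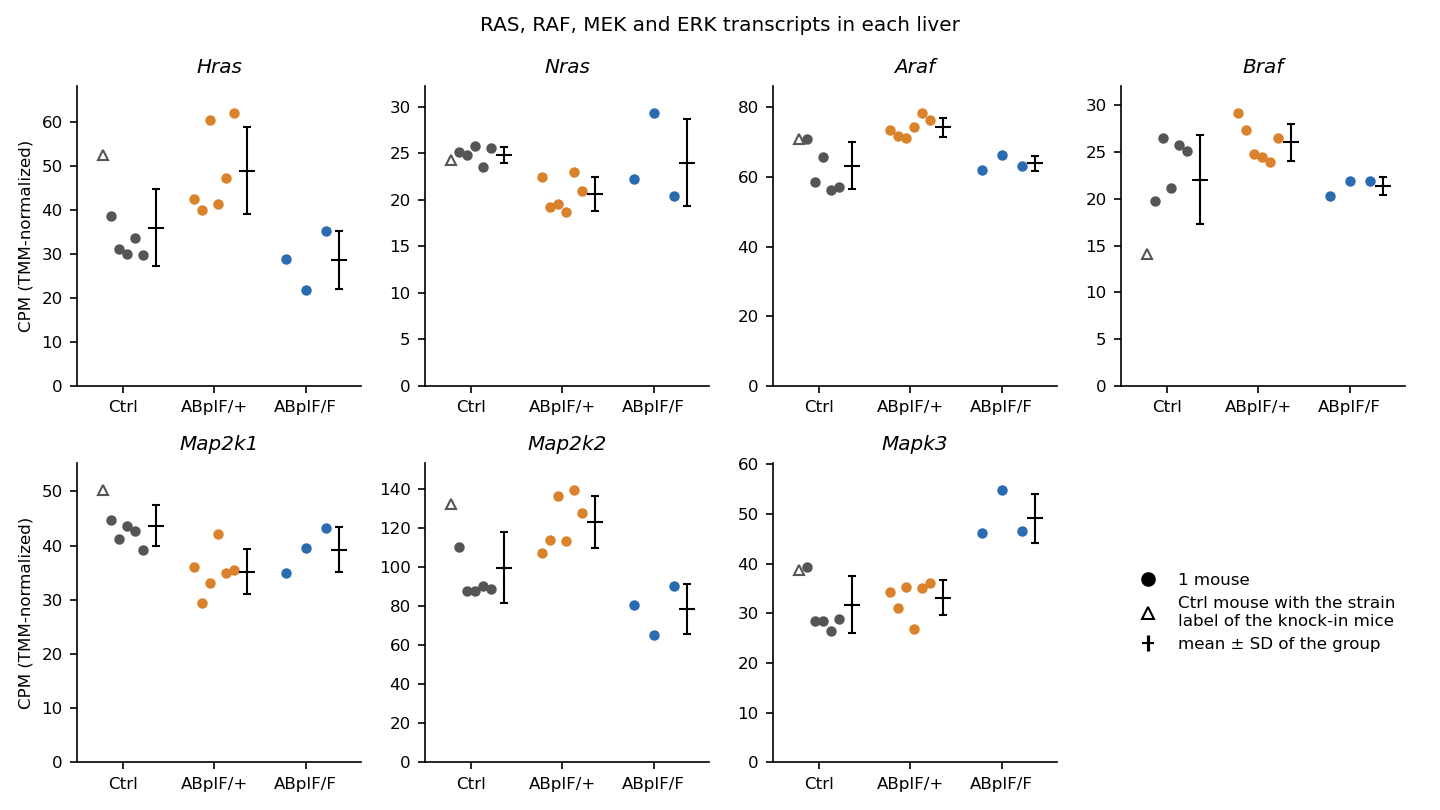
CPM of each member (vertical axis, from 0) in each mouse, by group (horizontal axis), with the mean and SD of the group as a black bar. The triangle is Ctrl mouse BG3, which is highest of the Ctrl mice for Hras (52.5 CPM) and Map2k2 (132 CPM) and lowest for Braf (14.1 CPM), and the 3 ABpIF/F mice stand above all others for Mapk3.

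Hras encodes one of the RAS GTPases. It lies on the minus strand at chr7:141189105-141194005 (GRCm38, GENCODE M21). In Ctrl livers Hras ran from 29.9 to 52.5 CPM with a median of 32.3, and in ABpIF/+ livers from 40.1 to 62.1 CPM with a median of 45.1. In ABpIF/F livers it was 21.9 CPM in BG38, 28.9 in BG183 and 35.2 in BG90. The ABpIF/+ mice stood highest, above every ABpIF/F mouse, and overlapped Ctrl only through BG3, the Ctrl mouse with the highest value. Hras was upregulated in ABpIF/+ vs Ctrl by 0.45 on the log2 scale (standard error 0.16, 1.36-fold, edgeR adjusted p = 0.0389). This call was lost without any 1 of malpa454, malpa458, malpa459, malpa462, BG31, BG55 and BG88, where the value was between 0.37 and 0.46 (edgeR adjusted p between 0.0563 and 0.106), with scaling by library totals only (0.27, edgeR adjusted p = 0.174) and with GC and length trends removed (0.36, edgeR adjusted p = 0.0745). In ABpIF/F vs ABpIF/+ it fell by 0.77 (standard error 0.20, edgeR adjusted p = 0.00792). Hras was lower in ABpIF/F vs Ctrl by a log2 fold change of -0.33 that did not pass the test (edgeR adjusted p = 0.32, standard error 0.19), and 2 of 3 ABpIF/F mice were below every Ctrl mouse. With the strain label as a term, so that BG3 alone stands for Ctrl, the value in ABpIF/+ vs Ctrl was -0.10 (edgeR adjusted p = 1) and that in ABpIF/F vs Ctrl -0.87 (edgeR adjusted p = 0.0293). The call in ABpIF/F vs ABpIF/+ was lost without BG38 (-0.61, edgeR adjusted p = 0.0762) and with the clock score as a term (-1.08, edgeR adjusted p = 0.0602).

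Nras encodes the other RAS GTPase among the 7 members, at chr3:103058285-103067914 on the plus strand. It was the steadiest member in Ctrl, from 23.5 to 25.8 CPM with a median of 25.0, and ran from 18.6 to 23.0 CPM with a median of 20.2 in ABpIF/+. In ABpIF/F it was 20.4 CPM in BG90, 22.3 in BG183 and 29.3 in BG38, the mouse in which Hras was lowest. Every ABpIF/+ mouse was below every Ctrl mouse. Of the ABpIF/F mice, BG90 and BG183 lay within the ABpIF/+ range and below every Ctrl mouse, and BG38 lay above every Ctrl mouse. The ABpIF/F range thus spanned that of Ctrl with no mouse inside it. The difference in ABpIF/+ vs Ctrl, -0.27 on the log2 scale (standard error 0.10), did not pass the test (edgeR adjusted p = 0.0573), and it did with DESeq2 (adjusted p = 0.0167) and without any 1 of BG55, BG175 and BG38 (edgeR adjusted p between 0.033 and 0.045). It was -0.45 with scaling by library totals only (edgeR adjusted p = 0.0138) and -0.11 with GC and length trends removed (edgeR adjusted p = 0.483). The other comparisons gave -0.05 in ABpIF/F vs Ctrl (edgeR adjusted p = 1) and 0.22 in ABpIF/F vs ABpIF/+ (edgeR adjusted p = 0.273). Groups that do not overlap were found for 2 of 7 members in ABpIF/+ vs Ctrl (Nras and Araf), 1 of 7 in ABpIF/F vs Ctrl (Mapk3) and 5 of 7 in ABpIF/F vs ABpIF/+ (Hras, Araf, Braf, Map2k2 and Mapk3). Of all genes with at least 1 CPM, 31.3%, 31.6% and 34.2% had groups that do not overlap in these comparisons.

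Araf and Braf encode RAF kinases, the first kinase step below RAS, and Braf is the gene that carries the knock-in. Araf lies at chrX:20797814-20860519 on the plus strand and Braf at chr6:39603237-39725463 on the minus strand. Counts per gene do not separate knock-in from wild-type Braf transcripts. Araf ran from 56.3 to 70.9 CPM in Ctrl (median 62.1) and from 71.1 to 78.3 CPM in ABpIF/+ (median 73.9), and was 62.1, 63.2 and 66.4 CPM in the ABpIF/F mice BG183, BG90 and BG38. The ABpIF/+ values were the highest, with no mouse of another group among them, though the lowest was close to the highest Ctrl value. The log2 fold changes of Araf were 0.23 in ABpIF/+ vs Ctrl (standard error 0.09, edgeR adjusted p = 0.0805), 0.01 in ABpIF/F vs Ctrl (standard error 0.12, edgeR adjusted p = 1) and -0.22 in ABpIF/F vs ABpIF/+ (standard error 0.12, edgeR adjusted p = 0.242). None passed the test, and the first did with DESeq2 (adjusted p = 0.0164), without BG3 (edgeR adjusted p = 0.0383) and without malpa387 (edgeR adjusted p = 0.0464). The first also passed with edgeR's filterByExpr (edgeR adjusted p = 0.0461) and with the clock score as a term (edgeR adjusted p = 0.0381). With GC and length trends removed it was 0.31 (edgeR adjusted p = 0.00752). It was 0.05 with scaling by library totals only (edgeR adjusted p = 0.986) and 0.07 with the strain label as a term (edgeR adjusted p = 1). With library totals the third was -0.02 (edgeR adjusted p = 1).

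Braf ran from 14.1 to 26.5 CPM in Ctrl, with a median of 23.1. In ABpIF/+ it ran from 24.0 to 29.2 CPM with a median of 25.7, and the 3 ABpIF/F mice had 20.3, 21.9 and 22.0 CPM. Its spread in Ctrl (SD 4.76 CPM) was wider than in ABpIF/+ (SD 1.99) and ABpIF/F (SD 0.960), with BG3 lowest at 14.1 CPM and malpa387 next at 19.7. Braf did not pass the test in any comparison, with log2 fold changes of 0.24 in ABpIF/+ vs Ctrl (standard error 0.13, edgeR adjusted p = 0.194), -0.05 in ABpIF/F vs Ctrl (standard error 0.16, edgeR adjusted p = 1) and -0.29 in ABpIF/F vs ABpIF/+ (standard error 0.16, edgeR adjusted p = 0.249). Against BG3, by the strain label term, the first was 0.89 (edgeR adjusted p = 0.00394) and the second 0.60 (edgeR adjusted p = 0.0622). With the trend of log2 CPM on GC content and length removed in each mouse, the first was 0.47 (edgeR adjusted p = 0.000259) and the third -0.55 (edgeR adjusted p = 0.00107). With scaling by library totals only they were 0.06 (edgeR adjusted p = 1) and -0.10 (edgeR adjusted p = 0.987). The 3′ end of Braf shares 146 bases with Ndufb2 on the opposite strand, and the strand setting of the counting is not given in the sources used here. Ndufb2 itself was between 24.2 and 53.7 CPM in Ctrl and between 11.8 and 22.3 CPM in ABpIF/F. The part of reads from the shared bases in the Braf counts was not tested.

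Map2k1 and Map2k2 encode the MEK kinases MEK1 and MEK2, which phosphorylate ERK. Map2k1 lies at chr9:64185770-64253631 on the minus strand. It ran from 39.1 to 50.3 CPM in Ctrl with a median of 43.2, and from 29.4 to 42.2 CPM in ABpIF/+ with a median of 35.2. The ABpIF/F mice had 34.9, 39.6 and 43.2 CPM, across the border of the other groups, and 5 of 6 ABpIF/+ mice were below every Ctrl mouse. Map2k1 was downregulated in ABpIF/+ vs Ctrl, at -0.31 on the log2 scale (edgeR adjusted p = 0.0279, standard error 0.10), and its log2 fold changes were -0.15 in ABpIF/F vs Ctrl (edgeR adjusted p = 0.533) and 0.16 in ABpIF/F vs ABpIF/+ (edgeR adjusted p = 0.499). The call was lost without BG3 (edgeR adjusted p = 0.0565), without BG30 (edgeR adjusted p = 0.0786), without BG31 (edgeR adjusted p = 0.0627) and with the strain label as a term, where the value was -0.51 (edgeR adjusted p = 0.0567).

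Map2k2 lies at chr10:81105915-81133975 on the plus strand. Its CPM ran from 87.8 to 132 in Ctrl, with a median of 89.7, and from 107 to 139.7 in ABpIF/+, with a median of 121. The ABpIF/F mice had 65.1 CPM (BG38), 80.8 (BG183) and 90.5 (BG90), the same order of mice as for Hras. All 3 were below every ABpIF/+ mouse and 2 were below every Ctrl mouse, while 4 of the 6 Ctrl mice lay within a narrow band at the bottom of their range and BG3 and malpa387 above it. Map2k2 fell in ABpIF/F vs ABpIF/+ by 0.64 on the log2 scale (standard error 0.16, edgeR adjusted p = 0.00581). It did not pass the test in ABpIF/+ vs Ctrl, at 0.31 (standard error 0.13, edgeR adjusted p = 0.0848), or in ABpIF/F vs Ctrl, at -0.34 (standard error 0.16, edgeR adjusted p = 0.168). Without BG3 the first of these passed, at 0.40 (edgeR adjusted p = 0.0115). With the strain label as a term it was -0.10 (edgeR adjusted p = 1) and the second -0.75 (edgeR adjusted p = 0.0253). With GC and length trends removed the first was 0.08 (edgeR adjusted p = 0.751) and the second, which then passed, -0.56 (edgeR adjusted p = 0.0018), and with library totals only the first was 0.13 (edgeR adjusted p = 0.515). Without BG38 the adjusted p in ABpIF/F vs ABpIF/+ was 0.0572 by edgeR.

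Mapk3 encodes ERK1, an ERK kinase, and lies at chr7:126759601-126765819 on the plus strand. Its CPM ran from 26.4 to 39.3 in Ctrl, with a median of 28.7, and from 26.9 to 36.1 in ABpIF/+, with a median of 34.7. In ABpIF/F it was 46.1 in BG183, 46.5 in BG90 and 54.9 in BG38. Each ABpIF/F mouse was above all 12 others, and the nearest of these were Ctrl mice malpa387 (39.3 CPM) and BG3 (38.8 CPM). Mapk3 was upregulated in ABpIF/F vs Ctrl by 0.63 on the log2 scale (standard error 0.14, 1.55-fold, edgeR adjusted p = 0.00234) and in ABpIF/F vs ABpIF/+ by 0.57 (standard error 0.14, 1.48-fold, edgeR adjusted p = 0.00593). In ABpIF/+ vs Ctrl it was 0.06 (standard error 0.12, edgeR adjusted p = 0.944), a value whose sign turned with scaling by library totals only (-0.11). With the clock score as a term the values were 0.33 (edgeR adjusted p = 0.479) in ABpIF/F vs Ctrl and 0.22 (edgeR adjusted p = 0.77) in ABpIF/F vs ABpIF/+. The strain label term left 0.34 in ABpIF/F vs Ctrl (edgeR adjusted p = 0.457), and without BG38 the adjusted p in ABpIF/F vs ABpIF/+ was 0.0552 by edgeR.

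**Figure D2:**
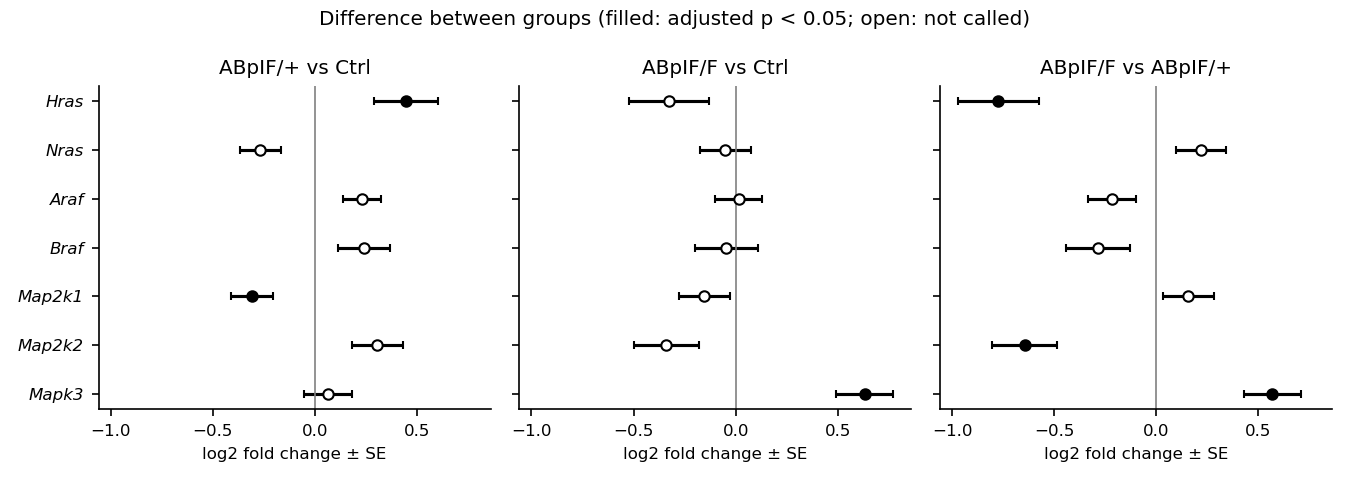
Log2 fold change (horizontal axis) with its standard error for each member (vertical axis) in the 3 comparisons, filled where the edgeR adjusted p was under 0.05. Filled points are Hras and Map2k1 in ABpIF/+ vs Ctrl, Mapk3 in ABpIF/F vs Ctrl, and Hras, Map2k2 and Mapk3 in ABpIF/F vs ABpIF/+, all within 1 log2 unit of 0.

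The members that were called moved beside markers of other cells. In ABpIF/+ vs Ctrl, where Hras and Map2k1 were called, 6 of 6 stellate cell and fibroblast markers, 4 of 6 macrophage markers, 3 of 6 sinusoidal endothelium markers, 3 of 6 lymphocyte markers and 5 of 6 proliferation genes were downregulated and none upregulated, 4 of 6 hepatocyte markers were upregulated and 2 downregulated, and 1 of 6 cholangiocyte markers went each way. Hepatocyte markers summed to 90877 to 124755 CPM in Ctrl, below every ABpIF/+ mouse. The sum was mostly Alb, with a median of 88419 CPM in Ctrl and 150150 CPM in ABpIF/+. Ttr and Cps1 had lower medians in ABpIF/+ (2301 and 2812 CPM) than in Ctrl (4221 and 4788 CPM), and the other 4 markers had higher ones. In ABpIF/F vs Ctrl, where Mapk3 was called, 5 of 6 cholangiocyte markers were upregulated, as were 3 of 6 hepatocyte markers (1 downregulated), 1 of 6 stellate cell and fibroblast and 1 of 6 endothelium markers. In ABpIF/F vs ABpIF/+, 6 of 6 cholangiocyte markers, 6 of 6 stellate cell and fibroblast markers, 5 of 6 macrophage markers, 3 of 6 sinusoidal endothelium markers, 3 of 6 lymphocyte markers and 5 of 6 proliferation genes were upregulated and none downregulated. Hepatocyte markers overlapped between these groups, at summed levels of 121377 to 212670 CPM in ABpIF/F and 163227 to 233520 CPM in ABpIF/+, with 1 of 6 downregulated. Cholangiocyte markers summed to 205 CPM in BG183, 778 in BG90 and 1150 in BG38, against 29.9 to 145 CPM in ABpIF/+ and 35.8 to 68.4 CPM in Ctrl, mostly from Spp1, and the keratin Krt19 did not exceed 4.57 CPM in any mouse. Macrophage markers summed to 241 to 549 CPM in ABpIF/F, 120 to 203 CPM in ABpIF/+ and 282 to 400.1 CPM in Ctrl. Stellate cell and fibroblast markers summed to 152 to 260.1 CPM in ABpIF/F, 38.8 to 84.0 CPM in ABpIF/+ and 168 to 229 CPM in Ctrl. Mapk3 and the cholangiocyte sum were both highest in the ABpIF/F mice, and among those 3 mice both were highest in BG38. Mapk3 was nearly equal in BG183 and BG90 (46.1 and 46.5 CPM), where the cholangiocyte sums were 205 and 778 CPM. Hras and Map2k2 were highest in the group with the lowest stellate cell and macrophage sums. The part of cell composition in these results was not tested, and in whole liver fewer cells of a type and less RNA per cell cannot be told apart.

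The ratio of paralogs within a mouse does not depend on library scaling, and it set Hras against Nras and Map2k1 against Map2k2. Trends with GC content or length need not cancel in it. The longest transcripts of Hras, Nras, Map2k1 and Map2k2 were 55.2%, 42.6%, 51.2% and 60.4% G or C. With both trends removed, their log2 fold changes in ABpIF/+ vs Ctrl were 0.36, -0.11, -0.32 and 0.08, in that order. No ratio was tested with these trends removed. The Hras/Nras count ratio ran from 1.16 to 2.17 in Ctrl (median 1.34) and from 1.90 to 3.10 in ABpIF/+ (median 2.15), and was 0.749 in BG38, 1.30 in BG183 and 1.73 in BG90. BG3, at 2.17, lay within the ABpIF/+ range and above 3 of its 6 mice, the other Ctrl mice and the ABpIF/F mice lay below that range, and of the 15 mice BG38 alone had fewer Hras than Nras reads. On the log2 scale the ratio was 0.73 higher in ABpIF/+ vs Ctrl (exact two-sided permutation test over 924 arrangements, p = 0.00866, adjusted p = 0.039 over 9 tests), and leaving out any 1 mouse but BG3 raised the adjusted p of the same exact test to between 0.0536 and 0.0779. Between the knock-in groups (ABpIF/F vs ABpIF/+) it was -0.98 (exact permutation test, p = 0.0238, the smallest that 84 arrangements give, adjusted p = 0.0536), with no overlap between the groups. Against Ctrl the ABpIF/F ratio was -0.25 (exact permutation test, p = 0.452, adjusted p = 0.582).

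The Map2k1/Map2k2 count ratio gave the clearest separation of ABpIF/+ livers. It ran from 0.380 to 0.497 in Ctrl (median 0.454) and from 0.243 to 0.372 in ABpIF/+ (median 0.267), and was 0.432 in BG183, 0.477 in BG90 and 0.608 in BG38. Every ABpIF/+ mouse was below every mouse of the other groups, and BG3 was the lowest Ctrl mouse. The log2 ratio in ABpIF/+ vs Ctrl differed by -0.63 (exact permutation test, p = 0.00216, the smallest that 924 arrangements give, adjusted p = 0.0195), and leaving out any 1 mouse kept it between -0.71 and -0.58 with an adjusted p of at most 0.039 by the same exact test. It was 0.81 higher in ABpIF/F vs ABpIF/+ (exact permutation test, p = 0.0238, adjusted p = 0.0536) and 0.18 higher in ABpIF/F vs Ctrl (exact permutation test, p = 0.262, adjusted p = 0.471).

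The Araf/Braf count ratio did not differ detectably between the groups. It ran from 2.18 to 5.04 in Ctrl and from 2.52 to 3.26 in ABpIF/+, and was 2.88, 3.03 and 3.06 in ABpIF/F. The high Ctrl values were BG3 (5.04) and malpa387 (3.59). Differences of the log2 ratio were -0.03, 0.03 and 0.07 in ABpIF/+ vs Ctrl, ABpIF/F vs Ctrl and ABpIF/F vs ABpIF/+, with adjusted p of 0.887, 0.887 and 0.582 by the exact permutation test.

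**Figure D3:**
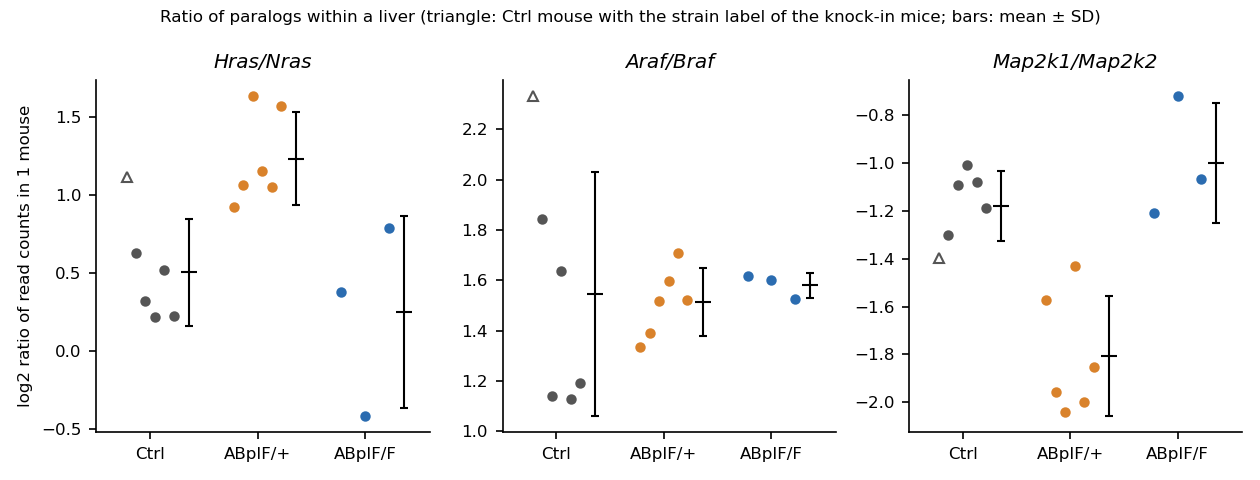
Log2 ratio of the read counts of 2 paralogs in the same mouse (vertical axis) by group (horizontal axis), with the mean and SD as a bar and Ctrl mouse BG3 as a triangle. The ABpIF/+ points lie below all others for Map2k1/Map2k2, where their count ratios end at 0.372, and Araf/Braf is highest in BG3 at 5.04.

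Levels of different genes were compared as CPM per kilobase, with the length of all exons of a gene in GENCODE M21. Braf was the least abundant member in every mouse, at 1.59 ± 0.343 CPM per kb (SD, n = 6) in Ctrl, and Nras was next at 4.66 ± 0.164. Hras (9.64 ± 2.35) and Araf (9.67 ± 1.04) were not separated in Ctrl, since Araf was higher in 4 of 6 mice. Map2k1 followed at 12.9 ± 1.12 and Mapk3 at 14.1 ± 2.54, which exceeded Map2k1 in 4 of 6 Ctrl mice. Map2k2 was highest, at 17.6 ± 3.22 CPM per kb, above Mapk3 in 6 of 6 mice.

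In ABpIF/+ the top remained Map2k2 (21.7 ± 2.37 CPM per kb, SD, n = 6) before Mapk3 (14.7 ± 1.55), and Hras (13.1 ± 2.64) and Araf (11.4 ± 0.416) came before Map2k1 (10.4 ± 1.24). The order of Hras and Araf held in 4 of 6 mice and that of Araf and Map2k1 in 5 of 6. In ABpIF/F Mapk3 (21.8 ± 2.20 CPM per kb, SD, n = 3) exceeded Map2k2 (13.9 ± 2.27) in 3 of 3 mice. With the longest transcript in place of all exons, Map2k2 instead exceeded Mapk3 in 2 of 3 ABpIF/F mice, and Araf ranked above Mapk3 in Ctrl and ABpIF/+, so these places rest on the length used. Braf and Nras kept the lowest places under both lengths. Per kilobase of all exons, Araf was 6.19-fold above Braf in Ctrl, 6.05-fold in ABpIF/+ and 6.34-fold in ABpIF/F as a geometric mean over mice.

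**Figure D4:**
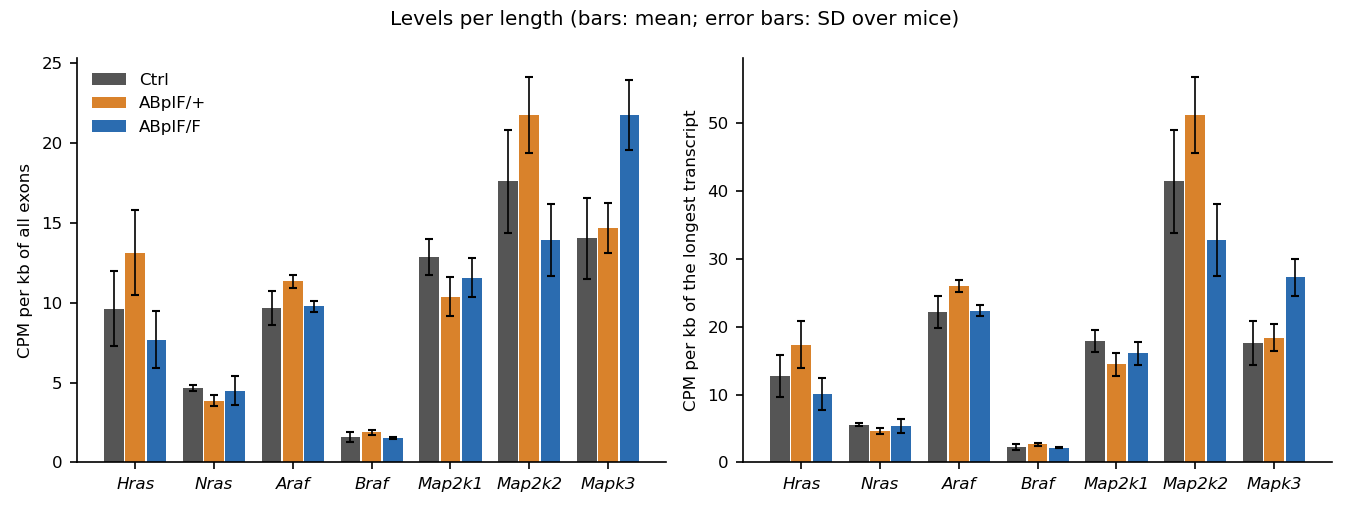
Mean level of each member with its SD over mice, in CPM per kilobase of all exons (left) and of the longest transcript (right), by group. Braf has the lowest bar in each group, 1.59 CPM per kb of all exons in Ctrl, and the Mapk3 bar of ABpIF/F (21.8) is above its Map2k2 bar (13.9) on the left only.

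In TMM-scaled CPM, Hras and Map2k2 had the same order of ABpIF/F mice and the same direction between the knock-in groups, so their promoters are shown. For Map2k2 the order of BG38 and BG183 rests on that scaling, in which BG38 had a factor of 1.24. Its reads were 2350 of 29127390 in BG38 and 2475 of 30651425 in BG183, nearly the same share. The windows are those of RefSeq on GRCm38.p6, from 250 bases before to 50 after the start, 5′ to 3′ on the strand of the gene, at chr7:141193955-141194254 (minus strand) for Hras and chr10:81105665-81105964 (plus strand) for Map2k2. GC boxes, GGGCGG on either strand, are in capitals.
Hras: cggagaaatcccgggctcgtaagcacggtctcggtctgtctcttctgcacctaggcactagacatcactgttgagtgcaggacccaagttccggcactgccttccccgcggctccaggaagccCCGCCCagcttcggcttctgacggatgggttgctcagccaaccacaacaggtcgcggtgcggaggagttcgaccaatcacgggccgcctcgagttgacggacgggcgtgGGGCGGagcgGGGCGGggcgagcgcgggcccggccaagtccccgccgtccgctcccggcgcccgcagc
Map2k2: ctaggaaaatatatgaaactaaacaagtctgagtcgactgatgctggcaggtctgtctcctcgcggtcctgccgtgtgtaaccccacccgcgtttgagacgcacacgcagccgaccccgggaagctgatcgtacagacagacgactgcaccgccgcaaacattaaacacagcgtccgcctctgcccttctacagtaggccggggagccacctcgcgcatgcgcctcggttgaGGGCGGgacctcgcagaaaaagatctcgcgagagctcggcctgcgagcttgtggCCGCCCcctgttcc
Hras had 3 GC boxes and Map2k2 had 2. Such windows were found for 6 of the 7 members, all but Mapk3. The GC box occurred in 5 of the 6, all but Araf, and in 35.7% of the 32851 promoter windows of this length. Nras had 3, Map2k1 4 and Braf 1, so the count did not set Hras and Map2k2 apart. CCAAT was found on either strand in the windows of Araf, Hras and Map2k1 (37.4% of all windows), CACGTG in that of Nras (7.15%), and CCGGAAG (8.86%), TATAAA (13.6%) and TGACTCA (5.20%) in none of the 6. The windows of Hras and Map2k1 were 69.0% G or C, that of Braf 65.0%, Map2k2 60.7%, Nras 52.3% and Araf 52.0%, against a median of 52.7% over all windows. These are matches of letters only.

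The genes whose profile over the 15 mice was most like that of a member, given here for 6 of the 7, were found among 12211 named genes with at least 1 CPM, by the root mean square difference of mean-centred log2 CPM. For Braf they were Kif21a (0.10), Lats1 (0.11) and Ercc6l2 (0.12), where Braf itself varied by 0.25 around its mean. Map2k2, with a spread of 0.31, was closest to Mrpl17 (0.07), a gene of the mitochondrial ribosome, and Hras, with a spread of 0.41, to Micos13 (0.12), a gene of the mitochondrial inner membrane. The likest genes were Smarce1 for Araf (0.09), Septin7 for Nras (0.09) and Cdin1 for Mapk3 (0.16, with a spread of 0.30 for Mapk3). These are descriptions over mice that share libraries and groups.

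Around these members, 72 other genes of the pathway were read by role in 8 lists, and many moved further than any member. In ABpIF/+ vs Ctrl 23 rose, 10 fell and 39 were not called, in ABpIF/F vs Ctrl 23 rose, 11 fell and 38 were not called, and in ABpIF/F vs ABpIF/+ 18 rose, 9 fell and 45 were not called. Both comparisons with Ctrl share the Ctrl mice. The 33, 34 and 27 of 72 called can be read only loosely against the 47.3%, 31.8% and 32.4% of genes with at least 1 CPM given above. The 72 were not filtered on level and include genes below 1 CPM, such as Mapk10.

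Upstream of RAS, the 14 adaptors and exchange factors held 3 genes up and 3 down in ABpIF/+ vs Ctrl, 4 up and 1 down in ABpIF/F vs Ctrl and 5 up and 1 down in ABpIF/F vs ABpIF/+. Rasgrp1, an exchange factor known from lymphocytes, fell from 2.37 ± 0.415 CPM (SD, n = 6) in Ctrl to 0.893 ± 0.453 (SD, n = 6) in ABpIF/+ (log2 fold change -1.40, edgeR adjusted p = 0.00215), and was 3.89 ± 2.11 CPM (SD, n = 3) in ABpIF/F (2.12 vs ABpIF/+, edgeR adjusted p = 0.000311). The lymphocyte markers summed to 11.3 to 16.9 CPM in Ctrl, 1.69 to 6.94 in ABpIF/+ and 13.2 to 42.3 in ABpIF/F, the same order, with Cd79a and Ms4a1 at 0 in at least 1 ABpIF/+ mouse. Their part in the Rasgrp1 result was not tested. Rasgrp2 rose from 14.3 ± 3.81 CPM in Ctrl to 56.4 ± 12.3 in ABpIF/F (log2 fold change 1.98, edgeR adjusted p = 3.98e-08).

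The 10 RAS GTPase activating proteins, which switch RAS off, held 3 up and 0 down in ABpIF/+ vs Ctrl, 6 up and 1 down in ABpIF/F vs Ctrl, where the list's median log2 fold change was 0.77, and 4 up and 0 down in ABpIF/F vs ABpIF/+. Rasal1 had the largest difference of the list vs Ctrl, from 0.369 ± 0.285 CPM (SD, n = 6) in Ctrl to 4.22 ± 1.26 (SD, n = 6) in ABpIF/+ and 10.1 ± 3.26 (SD, n = 3) in ABpIF/F, with log2 fold changes vs Ctrl of 3.52 (edgeR adjusted p = 6.15e-07) and 4.77 (edgeR adjusted p = 1.02e-07). Rasal3, a gene of blood cells, rose in ABpIF/F vs ABpIF/+ (1.73, edgeR adjusted p = 0.0155). Of the 6 RAS-related GTPases, 2 rose and 3 fell in ABpIF/+ vs Ctrl, 1 rose and 2 fell in ABpIF/F vs Ctrl, and 1 rose and 1 fell in ABpIF/F vs ABpIF/+. Mras, a partner of the SHOC2 phosphatase complex that activates RAF, fell from 4.71 ± 0.940 CPM in Ctrl to 1.09 ± 0.230 in ABpIF/+ and 2.25 ± 0.421 in ABpIF/F, with log2 fold changes vs Ctrl of -2.11 (edgeR adjusted p = 9.11e-08) and -1.07 (edgeR adjusted p = 0.00438). Between the knock-in groups it rose by 1.04 (edgeR adjusted p = 0.0047).

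Among the 10 scaffolds and modulators, 3 rose and 2 fell in each comparison with Ctrl, and 3 rose and 1 fell in ABpIF/F vs ABpIF/+. Pebp1, the RAF kinase inhibitor protein, ran from 103 to 233 CPM in Ctrl, from 46.9 to 60.5 CPM in ABpIF/+ and from 56.4 to 71.8 CPM in ABpIF/F, and neither knock-in group overlapped Ctrl. Its log2 fold changes vs Ctrl were -1.52 (standard error 0.18, edgeR adjusted p = 8.75e-07) and -1.20 (standard error 0.22, edgeR adjusted p = 0.000488). Iqgap1, a scaffold that binds MEK and ERK, rose in ABpIF/F vs ABpIF/+ (1.48, edgeR adjusted p = 0.000144), from 12.0 ± 0.873 CPM (SD, n = 6) to 33.5 ± 18.8 (SD, n = 3).

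The 5 other MAP2K genes, kinases of the parallel p38, JNK and ERK5 branches, held 1 up in ABpIF/+ vs Ctrl, 1 down in ABpIF/F vs Ctrl and 2 down in ABpIF/F vs ABpIF/+. Map2k6, which activates p38, went from 10.6 ± 4.47 CPM (SD, n = 6) in Ctrl to 33.2 ± 7.76 (SD, n = 6) in ABpIF/+ (log2 fold change 1.64, edgeR adjusted p = 0.000559) and was 6.25 ± 1.02 (SD, n = 3) in ABpIF/F (-2.41 vs ABpIF/+, edgeR adjusted p = 0.000623). Map2k3 fell in ABpIF/F vs Ctrl (-0.86, edgeR adjusted p = 0.00202). Of the 11 other MAPK genes, 3 rose and 1 fell in ABpIF/+ vs Ctrl, 2 rose and 2 fell in ABpIF/F vs Ctrl, and 1 rose and 2 fell in ABpIF/F vs ABpIF/+. Mapk15, which encodes the atypical ERK8, fell from 6.33 ± 4.33 CPM in Ctrl to 0.466 ± 0.226 in ABpIF/+ (-3.76, edgeR adjusted p = 1.81e-06) and was 5.64 ± 1.24 in ABpIF/F (3.59 vs ABpIF/+, edgeR adjusted p = 3.63e-05). Mapk13 rose in ABpIF/F vs Ctrl (1.92, edgeR adjusted p = 0.0117), at 1.17 ± 0.818 CPM against 0.309 ± 0.167.

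Downstream, the 6 kinases that ERK phosphorylates held 1 up in ABpIF/+ vs Ctrl, 1 up and 1 down in ABpIF/F vs Ctrl, and 2 up and 2 down in ABpIF/F vs ABpIF/+. Mknk1 rose in ABpIF/+ vs Ctrl (0.43, edgeR adjusted p = 0.00625), and Mknk2 fell in ABpIF/F vs Ctrl (-1.19, edgeR adjusted p = 0.0015) and vs ABpIF/+ (-1.56, edgeR adjusted p = 0.000176). The 10 transcripts known to be induced by ERK moved furthest, with 7 up and 1 down in ABpIF/+ vs Ctrl at a median log2 fold change of 1.54, and 6 up and 1 down in ABpIF/F vs Ctrl at a median of 1.07. Between the knock-in groups 2 rose, 0 fell and 8 were not called. Etv4, an ETS transcription factor, went from 0.121 ± 0.0909 CPM (SD, n = 6) in Ctrl to 1.39 ± 0.267 (SD, n = 6) in ABpIF/+ and 4.47 ± 2.75 (SD, n = 3) in ABpIF/F (5.14 vs Ctrl, edgeR adjusted p = 9.94e-08). Ccnd1, which encodes cyclin D1, went the other way and was between 105 and 162 CPM in Ctrl, between 2.45 and 10.9 CPM in ABpIF/+ and between 28.2 and 44.9 CPM in ABpIF/F. Its log2 fold change was -4.22 in ABpIF/+ vs Ctrl (edgeR adjusted p = 1.91e-08) and 2.33 in ABpIF/F vs ABpIF/+ (edgeR adjusted p = 7.45e-05). The feedback inhibitors Dusp6, Spry2 and Dusp4, named after their values were seen, were 72.3 ± 11.6, 9.95 ± 3.22 and 8.51 ± 1.80 CPM in ABpIF/+ (SD, n = 6) against 29.4 ± 6.89, 1.39 ± 0.616 and 0.914 ± 0.395 CPM in Ctrl (SD, n = 6). Of the 7 kinase cascade members themselves, the largest difference between any groups was the -0.77 of Hras. Differences of less than 2-fold were common, at 80.9%, 84.2% and 83.6% of genes with at least 1 CPM in the 3 comparisons.

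**Figure D5:**
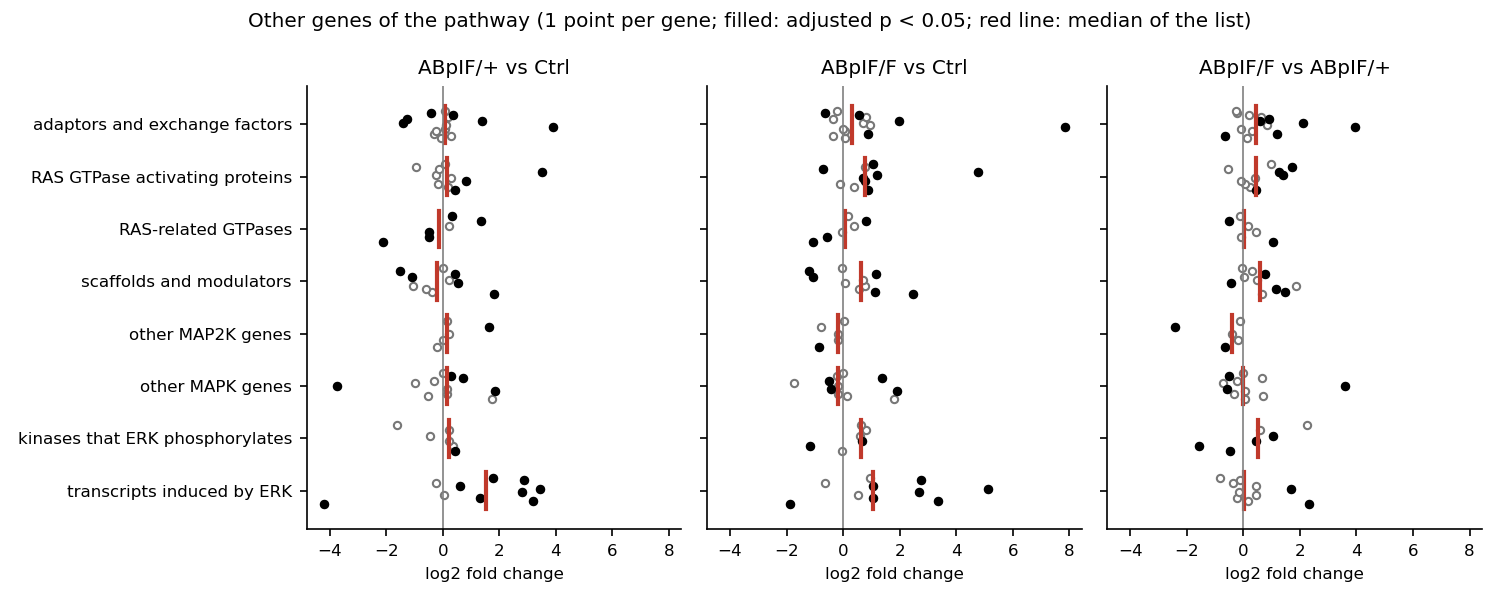
Log2 fold change (horizontal axis) of the 72 other pathway genes by list (vertical axis) in the 3 comparisons, filled where the edgeR adjusted p was under 0.05, with the list's median as a red line. The transcripts induced by ERK have medians of 1.54 and 1.07 in the comparisons with Ctrl, and the filled point far to their left is Ccnd1 (-4.22 in ABpIF/+ vs Ctrl).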

How the data were processed

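The deposited values are raw counts of reads per gene, which the authors made by aligning paired-end reads of stranded mRNA libraries to mm10 with HISAT2 and counting them with featureCounts. The version of the gene annotation is not given in the sources used here, and gene symbols were taken from the second table by gene ID. The labels list 23 samples for 15 mice (8 mice are named by 2 samples), and the count table has 1 column per mouse, since the authors joined the runs of a mouse before counting. A second deposited table held identical counts in the 10 mice compared, 5 further columns of it were not used, and its columns of the authors' own comparisons (fold changes, p-values) were not used.

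All 27179 genes entered 1 edgeR 4.0.16 quasi-likelihood fit of the 3 groups in R 4.3.3 (TMM, robust, in the form of earlier edgeR versions), adjusted by Benjamini-Hochberg over all genes. Log2 CPM used a prior count of 2. Each mouse was 1 replicate. Ratios of paralogs were tested by exact two-sided permutation over mice (scipy), adjusted over 9 tests. Alternatives were other scalings, DESeq2 1.42.0, filterByExpr, no robust estimation, the newer edgeR form, only the groups compared, the strain label or the clock score as a term, stricter thresholds, leaving out each mouse, an exact rank sum test and, chosen after seeing the data, removal of GC and length trends. The fit was tested on simulated data, only for ABpIF/+ vs Ctrl and without strain, clock or GC differences. The changed genes were well expressed and varied less between mice than the common spread in the data. The simulation thus does not cover comparisons with the ABpIF/F mice. Members and gene lists were chosen with earlier results of these data known. Named pathway genes are, per list and comparison, the called gene that moved furthest on the log2 scale, if it reached 1 CPM in a group, except 3 ERK-induced genes. Some other genes, of these families and beyond, are not reported here. Each member had at least 343 reads in every mouse.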

Additional observations from a re-analysis of the deposited data

How the results depend on the processing

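Members called numbered 2 in ABpIF/+ vs Ctrl, 1 in ABpIF/F vs Ctrl and 3 in ABpIF/F vs ABpIF/+. The first was 4 with DESeq2, filterByExpr or the clock score term, 1 with the strain label term and 0 at an adjusted p under 0.01. The second was 2 with the strain label term or with GC and length trends removed and 0 with the clock score term, and the third was 1 with the clock score term. With the added 2-fold threshold each was 0. Without any 1 mouse the first ran from 0 (BG31) to 3, with 1 called without malpa454, malpa458, malpa459, malpa462, BG30 or BG88, the second stayed at 1, and the third ran from 0 (BG38) to 3. Other pathway genes called numbered 33, 34 and 27 of 72. They were 18, 18 and 12 with the 2-fold threshold, 17 and 18 vs Ctrl with the strain label term, 10 in ABpIF/F vs Ctrl and 3 in ABpIF/F vs ABpIF/+ with the clock score term, and 15 in ABpIF/F vs ABpIF/+ at an adjusted p under 0.01. Without any 1 mouse they ran from 30 to 34, from 23 to 36 and from 16 (BG38) to 31. The causes were not tested.

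Signs turned with the strain label term for Hras (-0.10), Map2k2 (-0.10) and Mapk3 (-0.23) in ABpIF/+ vs Ctrl, and for Braf (0.60) and Araf (-0.15) in ABpIF/F vs Ctrl. Mapk3 in ABpIF/+ vs Ctrl was -0.11 with library totals and -0.054 with GC and length trends removed. In ABpIF/F vs Ctrl Braf was 0.14 and Araf -0.16 with the clock score term, and Araf was -0.035 with filterByExpr and -0.0042 in a fit of only those groups. Leaving out 1 mouse moved Braf between -0.15 and 0.013, Araf between -0.049 and 0.050 and Nras between -0.22 and 0.053 in ABpIF/F vs Ctrl. Of 525 log2 fold changes of members under an alternative, 462 kept direction and side of the threshold. That count includes fits without a mouse of the group not compared, which hardly move a value. It therefore does not measure how firm the calls are, and Hras in ABpIF/+ vs Ctrl kept both in 15 of 25.

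The Hras/Nras log2 ratio in ABpIF/+ vs Ctrl, 0.73, had an adjusted p of 0.0536 by an exact rank sum test and ran from 0.65 to 0.85 without any 1 mouse. The Araf/Braf ratio ran from -0.12 to 0.12 in ABpIF/+ vs Ctrl (above 0 without BG3, malpa387 or BG175) and from -0.049 to 0.19 in ABpIF/F vs Ctrl, and Hras/Nras in ABpIF/F vs Ctrl from -0.52 to 0.079 (above 0 without BG38). With library totals the median log2 fold change of genes with at least 1 CPM became -0.16 in ABpIF/+ vs Ctrl, from 0.02, and 0.15 in ABpIF/F vs ABpIF/+, from -0.04. The genes called higher and lower went from 3460 and 3464 to 2277 and 4541 in the first, and from 2914 and 2028 to 3747 and 1070 in the second. Only 1 Ctrl mouse shares the strain label of the knock-in mice, and the clock score nearly follows ABpIF/F, so these terms leave little information. A fit of the second deposited table was not run, since its counts were identical. With 3 mice, ratios in ABpIF/F cannot fall below p = 0.0238 in the exact permutation test. No paired analysis was possible because the mice carry no shared replicate numbers.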
